A study of Rattus norvegicus with 6 samples.

Results

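The genes described here are 10 genes of plasma membrane scaffolding and repair: Ahnak, Ahnak2, S100a10, Anxa1, Anxa2, Anxa5, Anxa6, Dysf, Myof and Trim72. They were picked by symbol from the 40456 genes of the deposited count table, and all 10 were found there. The differences between the groups were already known when the genes were picked, so those differences are given below as a description, with no p-value. All 10 passed the filter on low counts. The 6 libraries came from H9c2, a single rat cardiomyoblast line with the genotype WT, held for 5 days in medium with 1% serum and 1 µM retinoic acid. By the labels, 3 libraries had a negative control LNA gapmer and 3 a Tug1 knockdown LNA gapmer, both at 25 nM for 24 h with a lipid transfection reagent. No untransfected cells are among the samples, so both groups share the transfection, the low serum and the retinoic acid. A gapmer is a short antisense oligonucleotide with locked ends whose DNA centre lets RNase H cut the paired RNA, and Tug1 is a long non-coding RNA. The Tug1 arm rests on 1 gapmer sequence. Both gapmers, 16 bases each, define the groups compared and are therefore shown, 5′ to 3′.
Tug1 gapmer: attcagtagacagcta
Negative control gapmer: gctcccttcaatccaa

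Contracting muscle cells can tear their plasma membrane, and they reseal it within moments as calcium enters. AHNAK is a very large scaffold under the membrane that binds the complex of S100A10 with annexin A2, and AHNAK2 is its relative. Annexins bind acidic phospholipids when calcium rises and gather at the lesion. Dysferlin and myoferlin are large proteins with C2 domains that drive vesicle and membrane fusion, and TRIM72, also called MG53, brings vesicles to the tear in striated muscle.

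Upstream sequence is shown for both scaffold genes and for Anxa2 and Anxa5, an annexin with little difference between the groups and one with a large difference. RefSeq start sites of the assembly GRCr8 were available for 8 of the 10 genes. Each line holds the 250 bases before the start, read 5′ to 3′ on the gene's strand: Ahnak at chr1:215311104-215311353 (plus strand), Ahnak2 at chr6:137697489-137697738 (minus), Anxa2 at chr8:78986002-78986251 (plus) and Anxa5 at chr2:121272697-121272946 (minus). Capitals mark matches on either strand to the GC box GGGCGG, the CCAAT box CCAAT, the TATA box TATAAA, the TEAD motif GGAATG, the AP-1 motif TGANTCA and the E-box CAGCTG.
Ahnak: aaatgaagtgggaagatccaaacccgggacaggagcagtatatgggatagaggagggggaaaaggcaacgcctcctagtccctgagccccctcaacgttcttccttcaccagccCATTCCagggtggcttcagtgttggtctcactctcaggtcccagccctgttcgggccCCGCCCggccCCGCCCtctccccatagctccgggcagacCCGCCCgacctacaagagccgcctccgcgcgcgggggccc
Ahnak2: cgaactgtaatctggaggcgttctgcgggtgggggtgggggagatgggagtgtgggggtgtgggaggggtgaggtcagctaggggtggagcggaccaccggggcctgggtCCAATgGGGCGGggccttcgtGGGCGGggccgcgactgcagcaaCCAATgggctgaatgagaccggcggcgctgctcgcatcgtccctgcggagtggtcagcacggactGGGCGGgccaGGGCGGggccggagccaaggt
Anxa2: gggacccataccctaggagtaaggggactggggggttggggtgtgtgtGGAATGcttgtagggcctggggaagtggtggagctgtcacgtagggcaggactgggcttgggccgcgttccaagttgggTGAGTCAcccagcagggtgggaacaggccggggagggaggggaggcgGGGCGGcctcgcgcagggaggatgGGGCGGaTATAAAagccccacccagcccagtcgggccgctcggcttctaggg
Anxa5: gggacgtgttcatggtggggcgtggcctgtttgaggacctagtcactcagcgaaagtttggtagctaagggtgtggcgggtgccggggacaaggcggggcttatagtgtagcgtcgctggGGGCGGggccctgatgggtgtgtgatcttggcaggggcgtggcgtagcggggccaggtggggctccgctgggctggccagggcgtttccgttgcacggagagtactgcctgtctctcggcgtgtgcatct
Matches are a description of letters, not of bound factors, and no base in these lines belongs to 2 matches. The Ahnak2 window held 4 GC boxes and 2 CCAAT boxes and no match to the other 4 motifs. Ahnak held 3 GC boxes and 1 TEAD motif. Anxa2 had 2 GC boxes, 1 TATA box, 1 TEAD motif and 1 AP-1 motif, while Anxa5 had a single GC box. Among all 33469 upstream windows of this length in the table, a GC box was present in 30.5%, a CCAAT box in 34.0%, a TATA box in 12.9%, a TEAD motif in 12.1%, an E-box in 12.0% and an AP-1 motif in 6.34%. G and C made up 70.8% of the Ahnak2 window, 67.2% of Anxa2, 65.2% of Anxa5 and 64.8% of Ahnak, against a median of 51.2% over all windows. Ahnak2 has a second annotated start, whose window held 1 match each to the AP-1, TEAD, GC box and CCAAT motifs and to the E-box CAGCTG. Counts per gene cannot tell the starts apart.

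Libraries held 12978548 to 13544337 counts. Levels are given as CPM, counts scaled to library size with edgeR's TMM factors, and 3 counts, the limit taken for detection, corresponded to 0.217 to 0.232 CPM. Tug1 itself was at 54.0 ± 1.77 CPM in controls and 11.9 ± 0.609 CPM in the Tug1 gapmer libraries (SD, n = 3 each), which follows the labels. Among 14216 tested genes, edgeR's quasi-likelihood test called 61.7% at an adjusted p under 0.05, with 30.8% higher and 30.9% lower, and 65.6% had groups that did not overlap. The labels call the cells cardiomyocytes, yet Myh6, Myh7 and Nkx2-5 of 10 cardiomyocyte markers each had at most 3 counts over all libraries together. The 10 markers summed to 359 to 390.4 CPM in controls and 418 to 471 CPM in the Tug1 gapmer libraries, nearly all of it Tnnt2. Skeletal muscle markers, 10 genes with none at that limit, summed to 913 to 917 CPM in controls and 1340 to 1424 CPM in the Tug1 gapmer libraries, and 7 of the 9 tested were called higher and 1 lower. Fibroblast markers, 8 genes dominated by collagens, summed to 43710 to 45058 and 41119 to 43913 CPM, with Tcf21 at 0 counts. Of the 6 tested, Col3a1 and Dcn were called higher and Col1a1 and Thy1 lower. Smooth muscle markers, 5 genes, summed to 959 to 1052 and 1114 to 1270 CPM. Endothelial markers, 5 genes, were at 3.02 to 4.47 and 2.81 to 3.91 CPM, and leukocyte markers, 5 genes, at 10.9 to 12.5 and 15.4 to 17.5 CPM with Ptprc and Adgre1 at 0 counts. Nearly all of the leukocyte sum was Cd68, called higher (mean 3.60 to 7.65 CPM), and Csf1r, not called (7.65 to 8.83 CPM). Itgam went from 0.360 to 0.199 CPM. Cardiomyocyte, skeletal muscle, smooth muscle and leukocyte marker sums thus lay higher in every Tug1 gapmer library, and their part in the values below was not tested. In bulk RNA, fewer cells of a type and less RNA per cell cannot be told apart. No label says that replicates were separate cultures, so p-values measure only the spread between these libraries.

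Among the 10 genes, 9 were past the threshold, 6 of them higher and 3 lower with the Tug1 gapmer, and Anxa2 was not. As 61.7% of all tested genes were past it and the genes were picked with this comparison in view, nothing is read from the count. Their groups did not overlap in 9 of 10, against 65.6% of tested genes, with Anxa1 as the exception. The median log2 fold change of the 10 genes was 0.22, against 0.00 over all tested genes, and the median size without sign was 0.37 against 0.34. Both scaffolds, Anxa6, both ferlins and Trim72 lay higher with the Tug1 gapmer, and S100a10 and 3 of the 4 annexins lay lower, with the exception that Dysf and Myof changed sign under a correction for gene length.

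**Figure D1:**
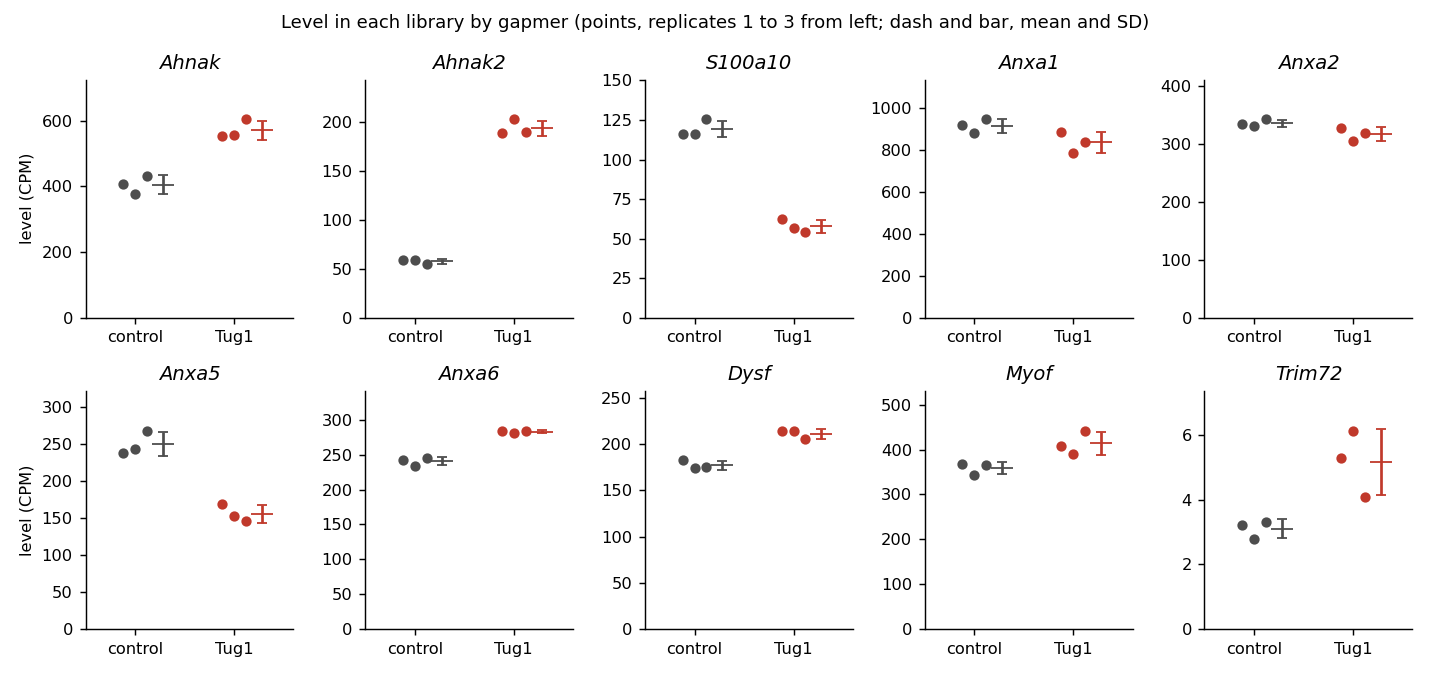
Level of each of the 10 genes in CPM (vertical axes from 0, scaled per gene) in the 3 control gapmer and 3 Tug1 gapmer libraries; points are libraries, the dash and bar are the mean and SD. Ahnak2 lies at 54.7 to 58.7 CPM in controls and 188 to 203 CPM with the Tug1 gapmer, S100a10 at 116 to 125 and 54.5 to 62.5 CPM, and only Anxa1 has groups that overlap.

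Both scaffold genes lay higher with the Tug1 gapmer, Ahnak2 by far more than Ahnak. Ahnak2 was at 58.7, 58.7 and 54.7 CPM in control replicates 1 to 3 and at 188, 203 and 189.6 CPM in Tug1 gapmer replicates 1 to 3. All 3 Tug1 gapmer libraries lay far above the highest control, with little spread in either group. The group means were 57.3 ± 2.31 and 193 ± 7.92 CPM (SD, n = 3), for a log2 fold change of 1.75 (SE 0.0547), or 3.37-fold. In size without sign, that exceeded or equalled 98.0% of tested genes. Ahnak was at 408, 376 and 433 CPM in controls and at 553, 558 and 604 CPM in the Tug1 gapmer libraries. The lowest Tug1 gapmer library lay above the highest control by more than the range of the controls. Averaged per group, the level was 405 ± 28.6 in controls and 571 ± 28.6 CPM with the Tug1 gapmer (SD, n = 3), and the log2 fold change was 0.49 (SE 0.0507), or 1.41-fold. Within each library, Ahnak2 counts per Ahnak count, a ratio that needs no scaling, were 0.144, 0.156 and 0.126 in controls and 0.341, 0.363 and 0.314 with the Tug1 gapmer. The ratio lay higher in all 3 Tug1 gapmer libraries than in any control, with a mean of 0.142 ± 0.0150 against 0.339 ± 0.0248 (SD, n = 3). AHNAK proteins are built of long repeats, and how reads matching both genes were counted, as for any gene here with close copies, is not given in the sources used here. Transcript lengths were not used here, so levels of different genes are not ranked against each other.

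The 3 genes whose profile was most like that of Ahnak were Prr14l, Usp34 and Srbd1, out of 9075 other genes with a mean of at least 10 CPM. Likeness was the Euclidean distance between log2 CPM profiles centred on their mean over the 6 libraries, and it was 0.0424, 0.0589 and 0.0594. Their log2 fold changes were 0.48, 0.49 and 0.51 beside 0.49 for Ahnak. All of these values share the same 6 libraries, and the distance is mostly set by the difference between the groups.

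S100a10 and Anxa2 encode the partners of 1 complex, in which S100A10 joins annexin A2 molecules, and S100a10 lay lower by far more than Anxa2. S100a10 was at 116, 116 and 125 CPM in controls and at 62.5, 56.7 and 54.5 CPM in the Tug1 gapmer libraries. Every Tug1 gapmer library lay far under the lowest control. The group means were 119 ± 5.32 and 57.9 ± 4.15 CPM (SD, n = 3), so that the Tug1 gapmer level was 48.5% of the control level, with a log2 fold change of -1.04 (SE 0.0598). Anxa2 was at 334, 330.2 and 342 CPM in controls and at 328, 304 and 319 CPM with the Tug1 gapmer. The groups did not overlap, but the gap between them was smaller than the range of either group. Anxa2 averaged 336 ± 6.16 and 317 ± 11.7 CPM (SD, n = 3), for a log2 fold change of -0.08 (SE 0.0444), not past the threshold, but -0.13 and past it with the length correction. S100a10 counts per Anxa2 count were 0.348, 0.352 and 0.366 in controls and 0.191, 0.186 and 0.171 with the Tug1 gapmer. The ratio was 0.355 ± 0.00980 against 0.182 ± 0.0105 (SD, n = 3), with the groups far apart.

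**Figure D2:**
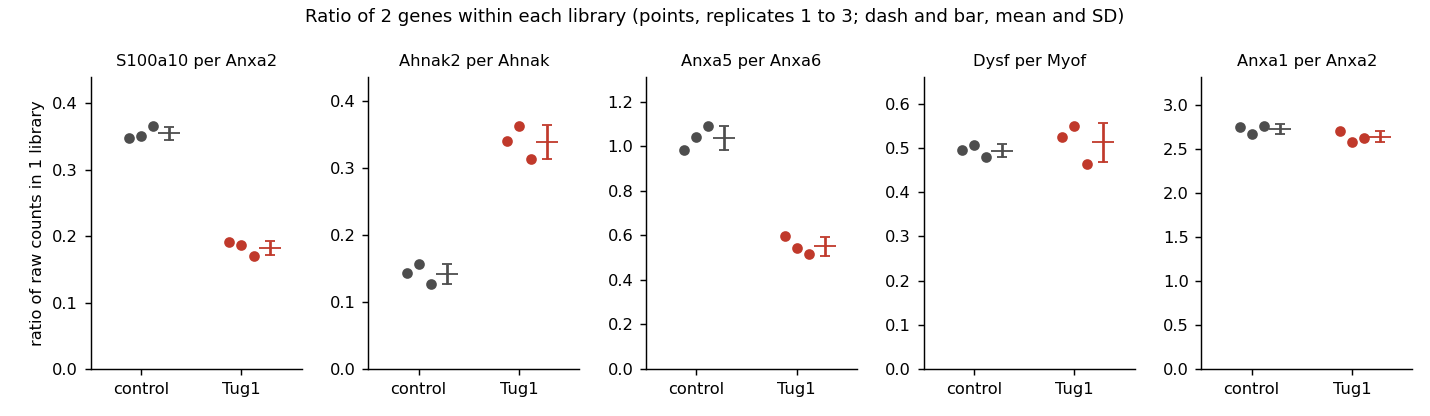
Ratio of raw counts of 2 genes within each library (vertical axes from 0), by gapmer; points are replicates 1 to 3, the dash and bar are the mean and SD. S100a10 per Anxa2, Ahnak2 per Ahnak and Anxa5 per Anxa6 separate the groups, whereas Dysf per Myof and Anxa1 per Anxa2 overlap.

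The other 3 annexins differed from each other in direction. Anxa5, whose product binds exposed phosphatidylserine and forms a lattice over lesions, was at 238, 244 and 268 CPM in controls and at 169, 152 and 146 CPM with the Tug1 gapmer. All Tug1 gapmer libraries lay well under the lowest control. Averaged per group, the level was 249.9 ± 16.1 in controls and 156 ± 11.7 CPM with the Tug1 gapmer (SD, n = 3), and the log2 fold change was -0.68 (SE 0.0564). Anxa6, the largest annexin, with the annexin core repeated, was at 242, 234 and 246 CPM in controls and at 284, 281 and 284 CPM with the Tug1 gapmer. The Tug1 gapmer libraries were nearly equal and all above the controls. The group means were 241 ± 5.78 and 283 ± 1.65 CPM (SD, n = 3), for a log2 fold change of 0.23 (SE 0.0438), which was 0.13 with the length correction. Anxa5 per Anxa6 was 1.04 ± 0.0541 in controls and 0.550 ± 0.0413 with the Tug1 gapmer (SD, n = 3). Anxa1, known for limiting inflammation as well as for repair, was at 919.9, 880.1 and 946 CPM in controls and at 887, 786 and 838 CPM with the Tug1 gapmer. Tug1 gapmer replicate 1 lay above control replicate 2, so the groups overlapped. Averaged per group, the level was 915 ± 33.2 in controls and 837 ± 50.2 CPM with the Tug1 gapmer (SD, n = 3), and the log2 fold change was -0.13 (SE 0.0464). Anxa1 was past the threshold in edgeR's test with TMM, but not with library totals (-0.08), with the length correction (-0.10), or without control replicate 1 (-0.13), control replicate 3 (-0.10) or Tug1 gapmer replicate 2 (-0.08). Within each group, Anxa1 and Anxa2 ordered the libraries alike, with replicate 2 lowest in both groups. Replicate 2 was also lowest in both groups for Anxa6 and Myof. The ratio Anxa1 per Anxa2 was 2.73 ± 0.0535 in controls and 2.64 ± 0.0627 with the Tug1 gapmer (SD, n = 3), and the groups overlapped.

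Both ferlin genes lay a little higher with the Tug1 gapmer, though not with the correction for gene length given further on, where both were at -0.06. Dysf, the gene of dysferlin, whose loss causes a muscular dystrophy, was at 182, 174 and 175 CPM in controls and at 214, 215 and 205 CPM with the Tug1 gapmer. The lowest Tug1 gapmer library stood above the highest control by more than the range of either group. The group means were 177 ± 4.67 and 211 ± 5.26 CPM (SD, n = 3), for a log2 fold change of 0.25 (SE 0.0465). Myof, the gene of myoferlin, which takes part in myoblast fusion, was at 368, 343 and 365 CPM in controls and at 409, 390.1 and 442 CPM with the Tug1 gapmer. Here too the groups did not overlap. Averaged per group, the level was 359 ± 13.9 in controls and 414 ± 26.3 CPM with the Tug1 gapmer (SD, n = 3), and the log2 fold change was 0.21 (SE 0.0489). Dysf per Myof was 0.494 ± 0.0144 in controls and 0.513 ± 0.0440 with the Tug1 gapmer (SD, n = 3), with overlap. Trim72 had few reads, with 42, 36 and 43 counts in controls and 73, 83 and 54 with the Tug1 gapmer. These were 3.22, 2.79 and 3.32 CPM in controls and 5.29, 6.14 and 4.08 CPM with the Tug1 gapmer, all above every control. The group means were 3.11 ± 0.282 and 5.17 ± 1.04 CPM (SD, n = 3), for a log2 fold change of 0.73 (SE 0.196). Counting error alone is 15.7% of the level in a control library and 12.0% in a Tug1 gapmer library for Trim72, against 0.918% to 3.67% for the other 9 genes in either group.

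Gene length moved with the differences. Over the 13084 tested genes with a genomic span in the RefSeq table of GRCr8, the median log2 fold change went from -0.21 in the decile of shortest genes to 0.33 in the decile of longest genes. Dysf and Myof, with spans above or equal to those of 95.4% and 92.8% of these genes, had log2 fold changes under the median of the longest decile. When a trend on span was removed from each library, Dysf went to -0.06 (SE 0.0460) and Myof to -0.06 (SE 0.0445), neither past the threshold. Ahnak, longer than or as long as 85.1% of tested genes, went to 0.32 and Ahnak2 to 1.67. S100a10, among the shorter genes at 23.1%, went to -0.95, Anxa5 to -0.71 and Trim72, at 21.0%, to 0.84. With that correction 7 of the 10 genes were past the threshold, 4 higher and 3 lower. In that fit 8128 of the 13084 genes were past it, so nothing is read from the count. Only genomic span was used, and whether transcript length or another property of long genes moves with the values was not tested.

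**Figure D3:**
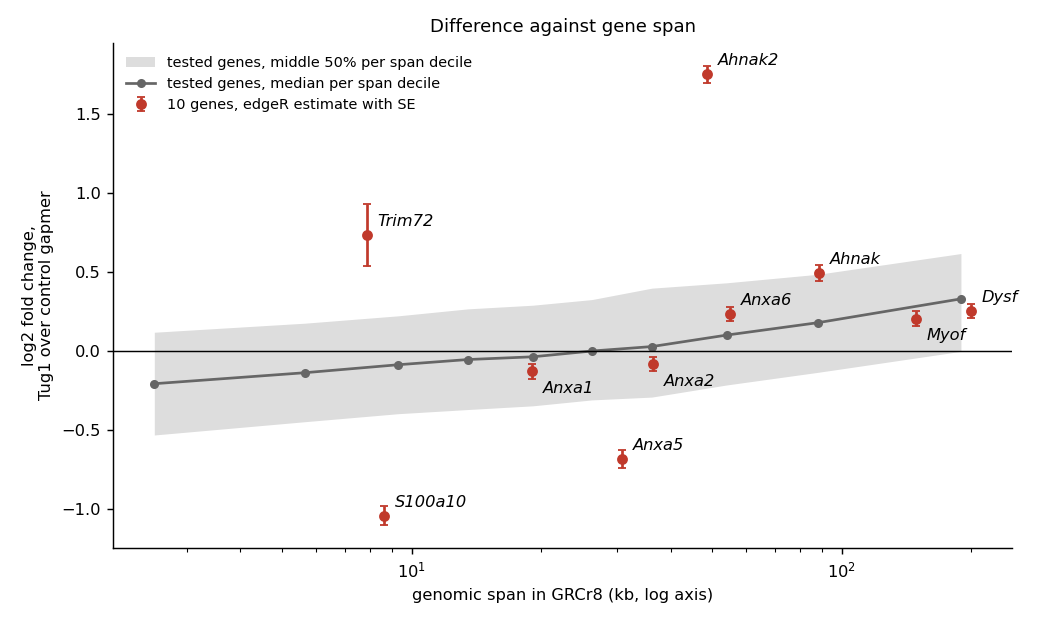
Log2 fold change (Tug1 gapmer over control gapmer) against genomic span in kb on a log axis; the grey line and band are the median and middle 50% of tested genes per span decile, and red points are the 10 genes with SE. Dysf and Myof lie under the grey line, which reaches 0.33 in the longest decile, while Ahnak2, Trim72, Anxa5 and S100a10 lie well outside the band and Ahnak at its upper edge.

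**Figure D4:**
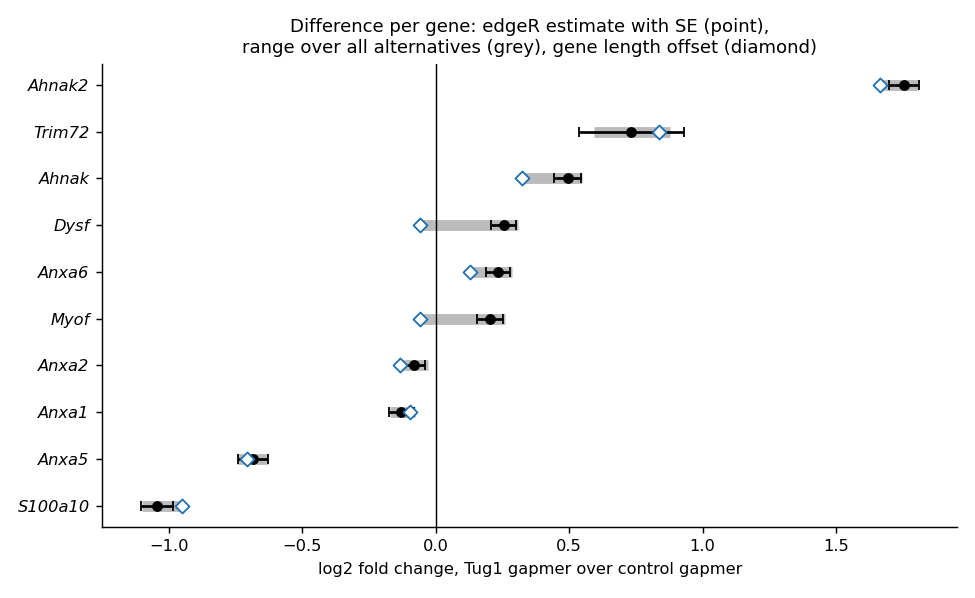
Log2 fold change of each of the 10 genes from edgeR with SE (points), its range over all alternatives (grey bars) and its value with the gene length correction (diamonds). Only the bars of Dysf and Myof cross 0.

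To place these genes among their partners, 10 lists around membrane repair were compared, 118 genes in all, none of them among the 10. Of these, 99 were tested and 71 called (71.7%), 40 higher and 31 lower, beside 61.7% of all tested genes. The lists, too, were chosen with earlier results of these data known. Nothing is therefore read from that count, and the adjusted p-values printed for list genes are a description. A call again means an adjusted p under 0.05 by edgeR, with the Benjamini-Hochberg adjustment made over all tested genes. The share called of those tested was 60% for other annexins, 77.8% for other S100 genes and 0% for other ferlins with Prx. It was 92.9% for caveolae, 50% for calpains, 76.5% for ESCRT and 64.3% for exocytosis. For scramblases and flippases it was 50%, for the dystrophin complex 85.7% and for plasminogen activation 83.3%. Over all tested genes, 30.8% were called higher and 30.9% lower, so nothing is read from calls in both directions within a list.

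Relatives of S100a10 were lower wherever they passed the test, and relatives of the annexins moved both ways. Of 8 other annexins, 5 were tested, 1 rose and 2 fell, with a median log2 fold change of -0.25 against 0.00 over all tested genes. Anxa11, which ties RNA granules to lysosomes, fell from 107 ± 2.87 to 69.2 ± 3.34 CPM (SD, n = 3; log2 fold change -0.62, SE 0.0552, edgeR adjusted p 1.40e-09). Anxa7 fell by 0.25 on the log2 scale and Anxa4 rose by 0.27, while Anxa3 (-0.11) and Anxa8 (-0.29) were not past the threshold. Of 15 other S100 genes, small EF-hand calcium-binding proteins, 9 were tested, 7 fell and none rose, and the median was -0.56. S100a4 fell from 304 ± 14.3 to 194 ± 25.6 CPM (SD, n = 3; -0.64, SE 0.0658, edgeR adjusted p 1.41e-08), S100a6 fell by 0.64 and S100a11, whose product binds annexin A1, was at -0.58 and also called. S100a1, the form of heart muscle (0.08, SE 0.203), and S100a3 (-0.17, SE 0.268) were not past the threshold, at under 5 CPM. S100 genes are short, with a median span percentile of 12.5, and with the length correction 6 of the 9 fell and the median was -0.43. Of 4 other ferlins and Prx, the periaxin gene related to Ahnak, only Fer1l5 (0.02, SE 0.226) and Prx (-0.28, SE 0.157) were tested, and 0 were called in edgeR's test. At an unadjusted p under 0.05 the count was also 0, as it was with DESeq2's Wald test, and it was 1 without Tug1 gapmer replicate 2.

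Genes of caveolae, membrane pits that also take part in resealing tears, moved in both directions. Of 14 genes, all tested, 7 rose and 6 fell, with a median of 0.07. Cav1, the coat protein of caveolae in most cells, fell from 380.4 ± 15.1 to 132 ± 10.3 CPM (SD, n = 3; log2 fold change -1.53, SE 0.0539, edgeR adjusted p 3.58e-16), and Cav2 fell from 83.2 ± 4.16 to 29.2 ± 3.02 CPM (-1.51, SE 0.0705). Bin1, which bends membranes into T-tubules, rose from 73.4 ± 1.15 to 157 ± 4.01 CPM (1.10, SE 0.0513, edgeR adjusted p 3.90e-14). Cav3, the caveolin of muscle, rose by 0.45 and Cavin1, the caveolar coat partner, fell by 0.78 on the log2 scale; both were named after their values were seen. Of 10 genes of the calpain system, proteases that calcium activates and that can cleave dysferlin and AHNAK, all were tested, 5 rose and none fell, with a median of 0.13. Capn1 rose from 71.0 ± 1.14 to 113 ± 2.44 CPM (0.67, SE 0.0523, edgeR adjusted p 1.59e-10), Capn5 by 0.67 and Cast, the inhibitor calpastatin, by 0.45. Capn2 (0.03, SE 0.0465) and the shared small subunit Capns1 (0.08, SE 0.0495) were not past the threshold.

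ESCRT proteins pinch off damaged membrane, and their calcium sensor ALG-2 is the product of Pdcd6. Of 17 ESCRT genes, all tested, 8 rose and 5 fell, with a median of 0.07. Pdcd6 rose from 68.6 ± 1.96 to 118 ± 7.09 CPM (SD, n = 3; log2 fold change 0.78, SE 0.0569, edgeR adjusted p 5.74e-11), and its partner Pdcd6ip, also called ALIX, rose by 0.54 and Chmp6 by 0.61. Of 15 genes of calcium-triggered exocytosis, 14 were tested, 6 rose and 3 fell, with a median of 0.16. Rab27a rose by 0.68, Snap23 by 0.45 and Vamp7 by 0.42, while Syt7, the calcium sensor of lysosome fusion, was too low to be tested at 14 counts over all libraries. Of 11 scramblase and flippase genes, which move phosphatidylserine across the membrane, 8 were tested, 2 rose and 2 fell, with a median of -0.02. Atp11a rose by 0.74 on the log2 scale. Plscr1 went from 2.44 ± 0.579 to 1.18 ± 0.248 CPM (SD, n = 3; -1.04, SE 0.286, edgeR adjusted p 0.00315).

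The dystrophin complex ties the membrane to the cytoskeleton and the matrix. Of its 15 genes, 14 were tested, 10 rose and 2 fell, with a median of 0.35. These 12 calls became 8 to 10 when a library was left out. Utrn, the gene of the dystrophin relative utrophin, rose by 0.80 and Sntb2 by 0.67 on the log2 scale. These are long genes, with a median span percentile of 83.6, and with the length correction 6 rose, 3 fell and the median was 0.18. The muscle marker sums given above were also higher in these libraries. S100A10 and annexin A2 together hold plasminogen and its activator at the cell surface, so 8 genes of that system were compared. Of these 6 were tested, 1 rose and 4 fell, with a median of -0.35. Serpine2 fell by 1.33 and Eno1 fell by 0.53 on the log2 scale. Plat, the tissue activator itself, was at -0.09 (SE 0.0428) and not past the threshold. Leaving out Tug1 gapmer replicate 1 took the count of this list from 5 to 3.

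**Figure D5:**
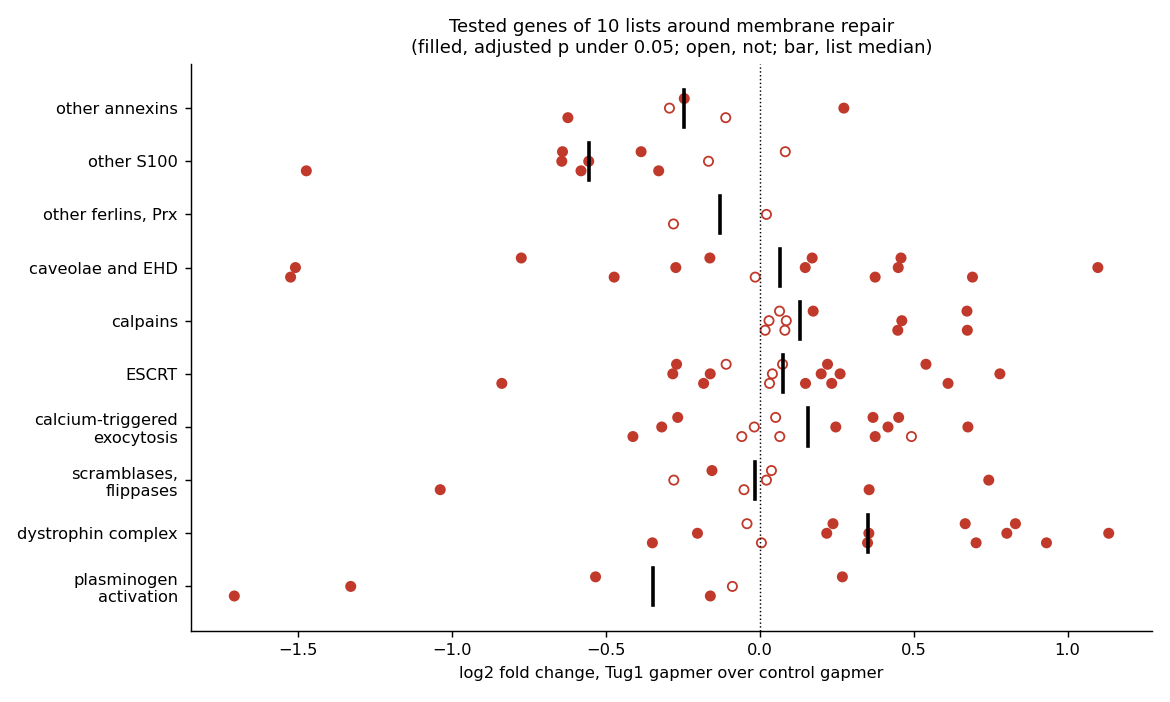
Log2 fold changes (Tug1 gapmer over control gapmer) of the 99 tested genes in 10 lists around membrane repair; filled points had an edgeR adjusted p under 0.05, open points did not, and bars are list medians. S100 genes lie mostly left of 0 with a median of -0.56, dystrophin complex genes mostly right with 0.35, and caveolar genes spread from -1.53 to 1.10.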

How the data were processed

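Poly-A RNA of the 6 H9c2 libraries was sequenced from stranded kits, per the labels' protocols. The authors' deposited table holds whole-number counts per gene symbol, 1 column per library, unscaled and unpooled, as the values show. The submitters' processing notes name FastQC 0.11.7, fastp 0.14.1 and STAR 2.5 without roles; counting tool, build, annotation, strand use and multi-mapped reads are not given in the sources used here. Counts (12978548 to 13544337 per library) were fitted with edgeR 4.0.16 in R 4.3.3: filterByExpr (minimum count 10, total 15; 14216 genes kept), TMM, quasi-likelihood test (two-sided, prior count 0.125), Benjamini-Hochberg over all tested genes, threshold 0.05. Each edgeR SE is the log2 fold change without sign, divided by the square root of the quasi-likelihood F statistic. The 3-count limit covers counting error only. Replicates differed beyond sampling noise (chi-square per degree of freedom 2.18 to 3.57 within groups), so none was merged. The script was tested on simulated data. Alternatives were DESeq2 1.42.0 (Wald test or size factors), library totals, limma-voom (limma 3.58.1), other filters, an adjusted p of 0.01, a replicate block, a length offset (lowess of log2 deviation on log2 span, span 0.3; alone or with the block) and leaving out each library. The members and lists were chosen with earlier results of these data known; alternatives were planned. Named list genes were the 3 called genes with the smallest p per list at a mean of at least 1 CPM; some of them are not reported here. Promoter sequences are RefSeq, GRCr8; the only coordinates printed are those of these promoter windows in that build.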

Additional observations from a re-analysis of the deposited data

How the results depend on the processing

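Tug1 ranged from -2.22 to -2.08 (log2 fold change) over the alternatives and was always called. Of the 10 membrane repair genes, 7 to 9 were past the threshold over all alternatives. Of these 10, 6 held the same direction and call in all 15 alternatives that kept the threshold of 0.05. Dysf was at -0.0590 with the length offset and at -0.0594 with the offset and the replicate block, and Myof at -0.0586 and -0.0595. Anxa2 passed as lower with the length offset (-0.13), and Anxa1 lost its call in 5 of these 15 alternatives. Anxa1 was also not past an adjusted p of 0.01. Apart from the effect of the offset on genes with long spans, the cause was not tested. Over all genes, 7353 to 8987 were called. Called genes of the dystrophin list numbered 12, with 9 by DESeq2's Wald test and 8 to 10 when a library was left out. Called genes of the plasminogen list numbered 5, and 3 at an adjusted p under 0.01; leaving out a library gave 3 to 5, the lowest without Tug1 gapmer replicate 1. The list of other ferlins had 0 to 1 called when a library was left out, with 1 only without Tug1 gapmer replicate 2. The list genes that the naming rule chose and that are given here kept direction and call in all 15 alternatives at the threshold of 0.05. Their size still moved with the length offset. Utrn went from 0.80 to 0.38, Vamp7 from 0.42 to 0.20 and Cast from 0.45 to 0.24. In the other direction, Pdcd6 went from 0.78 to 0.83 and Chmp6 from 0.61 to 0.74. Same-numbered deviations correlated at -0.00479, 0.0245 and 0.0204 across tested genes. Counting error in low genes enters these values, so they cannot settle whether replicate numbers pair the libraries. With the replicate block 8848 genes and 9 of the 10 genes were called, against 8773 and 9 without it. The block took the SE of Ahnak from 0.0507 to 0.0382 and that of Trim72 from 0.196 to 0.200. Depth limits Trim72 and the genes near 1 CPM.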

Other observations

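Most of the S100 genes examined also lie together on the chromosome, though S100a10 itself lies apart from them. In the GRCr8 gene table, 11 of the S100 genes examined follow each other as consecutive protein-coding genes on rat chromosome 2, from S100a1 to S100a9. Of these 7 were tested, and 5 were called lower with the Tug1 gapmer and 0 higher in edgeR's quasi-likelihood test. Among all tested genes, 30.9% were called lower and 30.8% higher. The 5 were S100a4 (-0.64), S100a6 (-0.64), S100a13 (-0.33), S100a14 (-1.47) and S100a16 (-0.56), the last 3 named after their values were seen. S100 genes are mostly short, and the decile of shortest genes had a median log2 fold change of -0.21. Whether their place on the chromosome plays a part was not tested. S100a14 is a low gene, at 1.18 ± 0.343 CPM in controls and 0.420 ± 0.0499 CPM with the Tug1 gapmer (SD, n = 3). S100a10 and S100a11 are next to each other elsewhere on that chromosome, at -1.04 and -0.58, and S100g, on chromosome X, was at -0.39. With the length offset S100a13 was at -0.21 and not past the threshold, and the others stayed past it. Genes this close can share reads where strand is not used in counting, which the sources used here do not give.

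Cav1 and Cav2 are neighbours as well, with 0 protein-coding genes between them in the table on chromosome 4, and their log2 fold changes were -1.53 and -1.51, or -1.56 and -1.40 with the length offset.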
